A study of Mus musculus with 12 samples.

Results

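The endothelial genes comprise 36 genes that mark the inner lining of blood and lymph vessels: receptors, junction proteins, surface glycoproteins, transcription factors and secreted proteins. They were chosen by name, and each was read from the probe set annotated with its symbol alone. All 36 had such a probe set, and each had exactly 1, out of 21789 probe sets with a single gene among 28853 on the array. The 12 cultures were fibroblasts grown from male C57BL/6J embryos of stage E12.5-14.5 and harvested for total RNA at passage 5, with 3 cultures in each of 4 groups. All were grown with 10% fetal bovine serum and passaged every 3 days. The mTERT KO group lacked telomerase reverse transcriptase, the protein subunit of the enzyme that extends chromosome ends, and the mTERT WT group was its wild type. The mTR KO group lacked the telomerase RNA, and the mTR WT group was its wild type. Both knockouts were of the first generation (G1) without telomerase, and the design text describes 3 sets in which wild-type and knockout embryos were littermates. Fibroblasts of this kind are a mixed primary culture of the embryo body and can hold other cells, so the genes were read for endothelial RNA at passage 5.

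Endothelial cells read vascular endothelial growth factor (VEGF) through the receptors Kdr and Flt1. They stabilise vessels through the angiopoietin receptor Tek and its partner Tie1, and join to each other through Cdh5 (VE-cadherin), Pecam1 and Cldn5. Their identity is held by ETS-family factors such as Erg and Fli1 and by the SoxF factors Sox7, Sox17 and Sox18. Several of these genes are also used outside vessels: Fli1, Tal1, Cd34 and S1pr1 in blood-forming cells, and Eng and Cd34 in mesenchymal cells.

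The array carried the mark of the mTERT knockout: Tert read 4.75 to 4.99 in mTERT KO cultures, against 5.51 to 5.80 in all others. Terc, the telomerase RNA gene, was not above background in any of the 12 cultures, so the array does not check the mTR label. Values are log2 signals. A probe set was called above background in a culture when its signal exceeded that of 95% of the 1035 probe sets for olfactory receptors on the same array, since those receptors are genes of the nose. That level lay between 4.93 and 5.09. The signals of different probe sets are not amounts that can be set against each other, so each gene is compared with itself across cultures. Nothing in the labels says more about the independence of the cultures than the litter statement, and p-values measure the spread between these cultures.

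The endothelial genes split into a set at background in every culture and a set with signal in some or all cultures. Receptors lay on both sides: Kdr, Tek and Tie1 at background, and Flt1, Eng and S1pr1 with signal in every culture. Of the 36, 18 passed the background level in 0 of 12 cultures, 7 passed in some cultures and 11 passed in all 12. Among all probe sets of 1 gene, 31.1% passed in no culture, 12.6% in some and 56.3% in all. The 18 included the junction proteins Pecam1, Cdh5, Esam and Icam2, the receptors Kdr, Tek, Tie1, Robo4 and Aplnr, and the transcription factors Sox17, Sox18 and Prox1. The other 6 were Vwf (von Willebrand factor, the clotting protein stored in endothelial granules), Mmrn1 and Mmrn2 (multimerins), Plvap (a protein of capillary fenestrae), Nos3 (endothelial nitric oxide synthase) and Dll4 (a Notch ligand of sprouting vessels). Of the 11 above background in every culture, 6 also passed the stricter level of 99% in every culture: Flt1, Eng, Ecscr, Fli1, Cd34 and S1pr1. The other 5 were Sox7, Tal1, Egfl7 (a matrix protein that vessels secrete), Gpihbp1 (which holds lipoprotein lipase on capillaries) and Apln (a peptide ligand of tip cells), none above 5.66 in any culture. Of the 7 that passed in some cultures, Erg did so in 9 and Lyve1 in 8. Emcn, Clec14a and Cldn5, a tight junction protein, passed in 3 each, Flt4 in 2 and Ramp2 in 1.

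**Figure D1:**
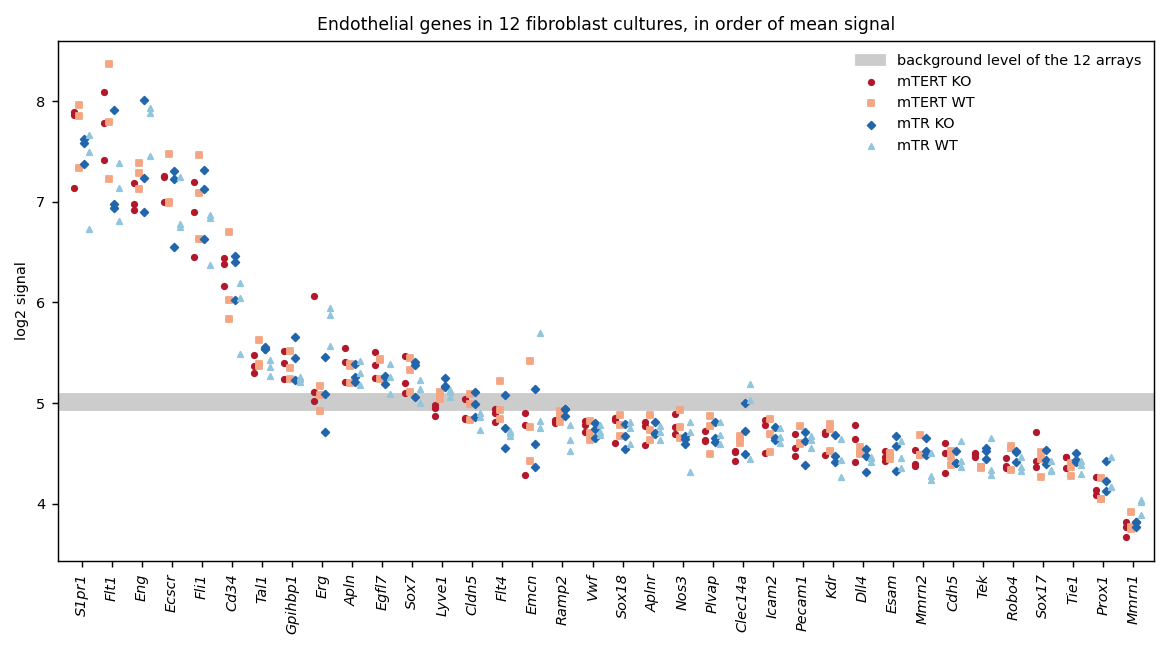
Log2 signal of the 36 endothelial genes (horizontal axis, ordered by mean signal for display) in each of 12 cultures (points, coloured by group). The grey band spans the background levels of the 12 arrays, from 4.93 to 5.09; Cdh5, Pecam1, Kdr and Tie1 lie below it in every culture, and Flt1, Eng, Ecscr, Fli1, Cd34 and S1pr1 lie above it in every culture.

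Promoters of 4 receptors are shown from both sides of this split: Flt1 and Eng were above background in every culture, and Kdr and Tie1 in none. The sequences are the 250 bases before the transcription start in RefSeq (build GRCm38.p6), read 5′ to 3′ on the strand of the gene. Flt1 is the decoy-like VEGF receptor (chr5:147726012-147726261, minus strand), Kdr the main signalling VEGF receptor (chr5:75978456-75978705, minus strand), Eng the TGF-beta co-receptor endoglin (chr2:32646345-32646594, plus strand) and Tie1 the orphan partner of Tek (chr4:118489850-118490099, minus strand). Capitals mark GGAA and its reverse complement TTCC, the core that ETS factors bind.
Flt1: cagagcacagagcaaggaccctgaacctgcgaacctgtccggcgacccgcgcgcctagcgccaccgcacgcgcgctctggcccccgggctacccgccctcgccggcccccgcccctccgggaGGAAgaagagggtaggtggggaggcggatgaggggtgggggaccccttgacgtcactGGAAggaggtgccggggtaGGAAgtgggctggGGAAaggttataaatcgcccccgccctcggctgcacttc
Kdr: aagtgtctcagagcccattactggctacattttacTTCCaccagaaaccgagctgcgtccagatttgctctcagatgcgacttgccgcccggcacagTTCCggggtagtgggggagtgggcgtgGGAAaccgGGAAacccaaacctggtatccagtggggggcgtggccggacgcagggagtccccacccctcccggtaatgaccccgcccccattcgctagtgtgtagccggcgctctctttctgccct
Eng: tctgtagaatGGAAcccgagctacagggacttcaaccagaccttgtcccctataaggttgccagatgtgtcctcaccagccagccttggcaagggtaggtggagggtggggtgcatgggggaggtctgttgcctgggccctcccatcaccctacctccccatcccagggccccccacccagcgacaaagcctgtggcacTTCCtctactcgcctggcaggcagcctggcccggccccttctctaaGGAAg
Tie1: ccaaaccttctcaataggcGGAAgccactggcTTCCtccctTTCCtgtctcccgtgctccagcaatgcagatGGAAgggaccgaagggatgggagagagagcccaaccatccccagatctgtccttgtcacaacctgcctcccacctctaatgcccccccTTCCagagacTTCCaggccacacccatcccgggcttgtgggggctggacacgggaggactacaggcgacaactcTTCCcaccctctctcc
The core occurred 4 times in the Flt1 window, 4 times in that of Kdr, 3 times in that of Eng and 7 times in that of Tie1. It is short and common: 93.4% of 27025 promoter windows hold it at least once on either strand. For 18 of the 36 genes a window was used, and all counts are of 1 window per gene, the first listed. It held the core in 6 of 6 genes above background in every culture and in 7 of 7 genes above it in none. Of the 5 genes above background in some cultures, 3 had the core in that window, and Cldn5 and Erg did not. The later windows listed for Erg held it 4 and 2 times. The number of CpG dinucleotides, which is high in promoters active in many tissues, ranged from 3 to 23 in the 6, from 1 to 16 in the 5 and from 2 to 20 in the 7, with medians of 6, 12 and 6 in that order, and 6 over all windows. The counts of CpGs overlapped between the genes with signal and those without, and a match says nothing about binding in these cells.

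For a closer look, 8 of the 36 genes were picked as defining endothelial markers, a choice that leaves out genes with signal such as Flt1 and Eng. Of the 8, Pecam1, Cdh5, Kdr, Tie1, Tek and Sox17 were at background in every culture, Emcn was above it in 3 and Erg in 9. Pecam1, the platelet and endothelial adhesion molecule, read 4.55, 4.47 and 4.69 in mTERT KO cultures 1 to 3 and 4.59, 4.60 and 4.78 in mTERT WT cultures 1 to 3. Among mTR cultures it read 4.71, 4.62 and 4.38 in mTR KO and 4.55, 4.63 and 4.67 in mTR WT cultures. Its groups overlap in both lines, and no culture stands out. Cdh5 read 4.51, 4.30 and 4.60 in mTERT KO against 4.46, 4.39 and 4.52 in mTERT WT, and 4.41, 4.40 and 4.53 in mTR KO against 4.36, 4.62 and 4.42 in mTR WT cultures. Its highest culture, mTR WT 2, still lay under the background level of that array, 4.99.

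The receptors Kdr, Tie1 and Tek were likewise below background throughout. Kdr read 4.48, 4.71 and 4.69 in mTERT KO and 4.52, 4.74 and 4.79 in mTERT WT cultures, with 4.69, 4.47 and 4.42 in mTR KO and 4.27, 4.64 and 4.43 in mTR WT. Tie1 read 4.36, 4.46 and 4.47 in mTERT KO and 4.28, 4.37 and 4.40 in mTERT WT, with 4.43, 4.41 and 4.50 in mTR KO and 4.39, 4.30 and 4.43 in mTR WT. Neither gene reached the background level in any culture. Tek, the angiopoietin receptor, read 4.49, 4.51 and 4.46 in mTERT KO and 4.37, 4.35 and 4.36 in mTERT WT, and 4.55, 4.52 and 4.44 in mTR KO and 4.66, 4.33 and 4.28 in mTR WT. The mTERT groups of Tek do not overlap, but every value is background, so no fold change is given (limma, adjusted p = 1). Sox17, a factor of arterial endothelium, read 4.43, 4.37 and 4.71 in mTERT KO and 4.45, 4.27 and 4.52 in mTERT WT, and 4.43, 4.40 and 4.54 in mTR KO and 4.43, 4.33 and 4.34 in mTR WT.

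Emcn (endomucin, a sialomucin of capillary and venous endothelium) was the defining marker with the widest spread, 1.42 between its lowest and highest culture. It read 4.90, 4.28 and 4.78 in mTERT KO and 4.77, 4.43 and 5.42 in mTERT WT cultures. Among mTR cultures it read 4.36, 4.59 and 5.14 in mTR KO and 4.82, 5.70 and 4.75 in mTR WT. It passed background in 3 cultures, mTERT WT 3, mTR KO 3 and mTR WT 2, each of a different group. In those 3 cultures Cdh5 read 4.52, 4.53 and 4.62 and Pecam1 4.78, 4.38 and 4.63, all below background. The part that other cell types have in the Emcn signal was not tested. Clec14a, a C-type lectin of sprouting endothelium, also passed in 3 cultures, mTR KO 1 at 5.00, mTR WT 1 at 5.19 and mTR WT 3 at 5.03, and none of them is a culture in which Emcn passed.

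Among the receptors with signal, Flt1 had the widest range, 1.56, against a median range of 0.43 over probe sets above background in every culture. Flt1 read 8.09, 7.78 and 7.41 in mTERT KO cultures 1 to 3 and 8.37, 7.79 and 7.23 in mTERT WT cultures 1 to 3. The order of the cultures is the same in both mTERT groups, with number 1 highest and number 3 lowest, and the groups overlap. The mTR cultures gave 6.94, 6.98 and 7.92 in mTR KO and 7.38, 7.14 and 6.81 in mTR WT cultures, and mTR KO 3 was the highest of those 6. The difference between knockout and wild type was −0.03 ± 0.32 in the mTERT line and 0.17 ± 0.32 in the mTR line (limma, standard error, n = 3 each; adjusted p = 1 and 0.939). The 95% interval ran from −0.73 to 0.67 in the mTERT line and from −0.53 to 0.87 in the mTR line.

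Eng was the only gene of the 6 past the stricter level that had lower means in both knockouts, and it did not pass. It read 6.98, 6.92 and 7.19 in mTERT KO and 7.39, 7.29 and 7.13 in mTERT WT cultures. It read 8.02, 6.89 and 7.23 in mTR KO and 7.94, 7.46 and 7.89 in mTR WT cultures, so mTR KO 1 was the highest and mTR KO 2 the lowest of all 12. The differences were −0.24 ± 0.23 in the mTERT line (adjusted p = 1) and −0.38 ± 0.23 in the mTR line (limma, adjusted p = 0.840). The mTR difference was −0.70 without mTR KO 1 and −0.14 without mTR KO 2. All 3 mTERT WT cultures lay below all 3 mTR WT cultures, at a difference of −0.49 ± 0.23 (limma, adjusted p = 0.752).

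S1pr1, the receptor for sphingosine-1-phosphate that steadies the vessel barrier and guides lymphocytes, read 7.14, 7.89 and 7.86 in mTERT KO and 7.33, 7.85 and 7.96 in mTERT WT cultures. The mTR cultures gave 7.59, 7.62 and 7.37 in mTR KO and 6.73, 7.66 and 7.50 in mTR WT. The culture numbered 1 was the low one in mTERT KO, mTERT WT and mTR WT, and in mTR KO it was number 3. The knockout differences were −0.08 ± 0.26 in the mTERT line (adjusted p = 1) and 0.23 ± 0.26 in the mTR line (limma, adjusted p = 0.895), both smaller than their standard errors. Ecscr, an endothelial surface protein that regulates chemotaxis and apoptosis, read 7.24, 7.00 and 7.25 in mTERT KO and 7.48, 7.00 and 6.99 in mTERT WT. It read 6.55, 7.22 and 7.31 in mTR KO and 7.25, 6.75 and 6.78 in mTR WT, and its differences were 0.01 ± 0.21 (adjusted p = 1) and 0.10 ± 0.21 (limma, adjusted p = 0.942). Probe sequences were not used here, so whether this probe set reads Ecscr alone was not tested, and the values are those of the probe set annotated with that gene.

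Cd34, a sialomucin of endothelium, blood progenitors and some stromal cells, read 6.39, 6.16 and 6.44 in mTERT KO and 5.83, 6.02 and 6.70 in mTERT WT cultures. The mTR cultures gave 6.46, 6.40 and 6.02 in mTR KO and 6.05, 5.49 and 6.20 in mTR WT. Its means were higher in both knockouts, by 0.15 ± 0.23 (adjusted p = 1) and 0.38 ± 0.23 (limma, adjusted p = 0.840), and the groups overlap in both lines.

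**Figure D2:**
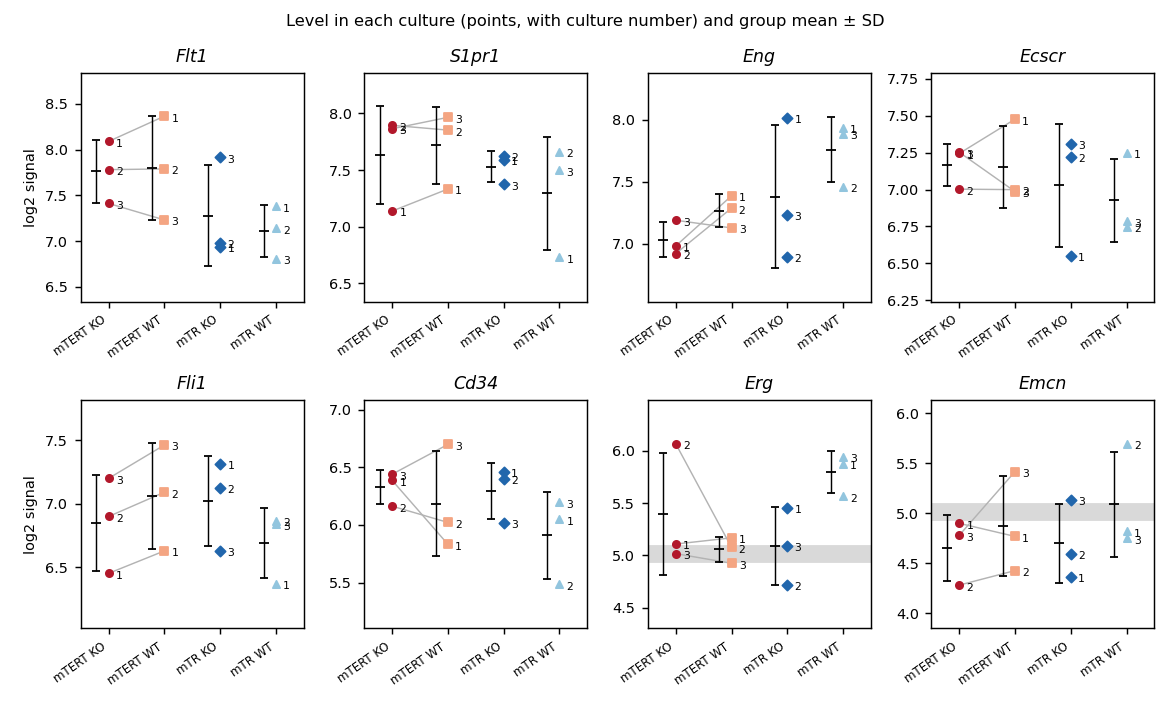
Log2 signal of 8 endothelial genes in each culture (points, labelled with the culture number) with group mean ± SD (n = 3) to the left of the points; grey lines join mTERT KO and mTERT WT cultures of the same number, and the grey band is background. Flt1, Fli1 and S1pr1 keep the order of the cultures across the mTERT groups, apart from numbers 2 and 3 of S1pr1, and Erg is high in mTERT KO 2 and in the 3 mTR WT cultures.

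Of the 7 transcription factors, Fli1, Sox7 and Tal1 were above background in every culture, Erg in 9, and Sox17, Sox18 and Prox1 (the lymphatic factor) in 0. Fli1 read 6.45, 6.90 and 7.20 in mTERT KO and 6.63, 7.09 and 7.46 in mTERT WT, and each knockout culture lay below the wild-type culture of its number. The mTR cultures gave 7.32, 7.12 and 6.63 in mTR KO and 6.37, 6.87 and 6.84 in mTR WT. Its differences were −0.21 ± 0.25 (adjusted p = 1) and 0.33 ± 0.25 (limma, adjusted p = 0.852). With 1 array left out they ran from −0.43 (without mTERT WT 1) to −0.0093 (without mTERT WT 3) and from 0.17 (without mTR WT 1) to 0.53 (without mTR KO 3).

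Erg had the largest difference of the 36 genes between mTR KO and mTR WT. Its signal was 5.46, 4.72 and 5.09 in mTR KO cultures, against 5.88, 5.57 and 5.94 in mTR WT, and the groups do not overlap. The mTERT cultures gave 5.11, 6.07 and 5.02 in mTERT KO and 5.17, 5.08 and 4.92 in mTERT WT, so mTERT KO 2 alone was high. Erg lay below the background level of its array in mTR KO 2 (4.72 against 4.99), mTERT KO 3 and mTERT WT 3. It passed the stricter level of 99% in 5 cultures. Each difference given here thus includes values at background, and its size is uncertain. In the mTR line the limma difference was −0.71 ± 0.26, with a 95% interval from −1.27 to −0.14. Its adjusted p in limma was 0.839. The mTERT difference was 0.34 ± 0.26 (adjusted p = 1), and without mTERT KO 2 it was 0.0059. The difference between the 2 knockout effects was 1.05 ± 0.36 (limma, adjusted p = 1.00). All 3 mTERT WT cultures lay below all 3 mTR WT cultures, by −0.74 ± 0.26 (limma, adjusted p = 0.589). No contrast of Erg passed the test.

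Tal1, a basic helix-loop-helix factor of blood and endothelial progenitors, read 5.55, 5.54 and 5.54 in mTR KO cultures and 5.27, 5.35 and 5.43 in mTR WT, and the groups do not overlap. The mTERT cultures gave 5.37, 5.30 and 5.48 in mTERT KO and 5.37, 5.38 and 5.63 in mTERT WT. It differed by 0.19 ± 0.08 in the mTR line (limma, adjusted p = 0.839).

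Among the lymphatic and capillary genes, Lyve1, a hyaluronan receptor of lymphatic endothelium and of some macrophages, read 4.87, 4.95 and 4.98 in mTERT KO and 5.04, 5.07 and 5.11 in mTERT WT cultures. It read 5.17, 5.25 and 5.16 in mTR KO and 5.13, 5.11 and 5.06 in mTR WT cultures. The groups separate in both lines, downward in mTERT KO and upward in mTR KO, within a band of 0.38 around the background level. Lyve1 was not above background in any mTERT KO culture and was above it in 2 of 3 mTERT WT cultures, so the mTERT KO level is a bound. For the bound, each mTERT KO array was given the lowest signal above background or the gene's own value, whichever is higher. The mTERT KO mean was then at least 1.05-fold below the mTERT WT mean as measured. That mTERT WT mean includes mTERT WT 1 at 5.04, under the background level of its array, 5.05. The measured difference did not pass (limma, adjusted p = 1), and the bound itself was not tested. Flt4, the VEGF receptor of lymphatic vessels, read 4.90, 4.81 and 4.94 in mTERT KO and 4.84, 4.93 and 5.22 in mTERT WT, and 4.55, 4.75 and 5.08 in mTR KO and 4.70, 4.72 and 4.67 in mTR WT. It passed background in mTERT WT 3 and mTR KO 3, both of which also passed for Emcn.

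Ramp2, Mmrn1 and Mmrn2 had unadjusted p-values below 0.05 in the mTR comparison at levels at or below background in all cultures but 1. Ramp2, the partner of the adrenomedullin receptor, read 4.94, 4.94 and 4.87 in mTR KO and 4.78, 4.64 and 4.52 in mTR WT cultures, and passed background in mTR KO 1 only (limma, adjusted p = 0.839). The mTERT cultures gave 4.83, 4.80 and 4.83 in mTERT KO and 4.88, 4.82 and 4.92 in mTERT WT. Mmrn1 read 3.77, 3.82 and 3.81 in mTR KO and 3.89, 4.02 and 4.03 in mTR WT, and 3.77, 3.67 and 3.82 in mTERT KO and 3.92, 3.77 and 3.74 in mTERT WT. Mmrn2 read 4.49, 4.65 and 4.52 in mTR KO and 4.50, 4.24 and 4.27 in mTR WT, and 4.53, 4.37 and 4.39 in mTERT KO and 4.49, 4.49 and 4.68 in mTERT WT. With fewer than 2 cultures above background in each group, no fold change is given for these 3 genes.

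The first comparison asked whether loss of mTERT changed the endothelial genes. None of the 36 passed a 5% false discovery rate in mTERT KO against mTERT WT cultures, where 0.00347% of all probe sets passed. By limma, 0 genes were higher with an unadjusted p below 0.05, against 0.96% of all probe sets, and 1 was lower, Lyve1, against 0.957%. The groups did not overlap for 1 gene that was higher (Tek) and 2 that were lower (Lyve1 and Clec14a), while 2.88% of all probe sets did not overlap upward and 3.09% downward. Of the 36 differences 14 were above 0, beside 50.6% of all probe sets, and 22 below, beside 49.4%, with a median of −0.03 beside 0.0011 over all probe sets. Lyve1 aside, every 95% interval of the 36 held 0. For the 6 genes past the stricter level, the intervals reached down to −0.77 (Fli1) and up to 0.67 (Flt1). With the mTERT pairs as a replicate block, the interval of Fli1 was −0.61 to 0.19 and that of Flt1 −0.59 to 0.52. Those of the 6 reached down to −0.80 (Eng) and up to 0.61 (Cd34). That fit shares 1 estimate of the spread with the mTR cultures, which have no block in it. These intervals are thus not those of the paired mTERT differences alone. By culture number, knockout minus wild type was −0.18, −0.19 and −0.26 for Fli1 and −0.28, −0.0076 and 0.18 for Flt1.

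The second comparison asked the same of mTR. None of the 36 passed a 5% false discovery rate in mTR KO against mTR WT cultures, and 0% of all probe sets did. By limma, 3 genes were higher with an unadjusted p below 0.05 (Ramp2, Mmrn2 and Tal1), where 2.23% of all probe sets were, and 2 were lower (Erg and Mmrn1), where 3.59% were. The groups did not overlap for 3 genes that were higher (Ramp2, Tal1 and Lyve1) and 2 that were lower (Erg and Mmrn1), beside 5.33% of all probe sets upward and 6.07% downward. Of the 36 differences 23 were above 0, beside 50.3% of all probe sets, and 13 below, beside 49.7%, with a median of 0.06 beside 0.0009 over all probe sets.

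**Figure D3:**
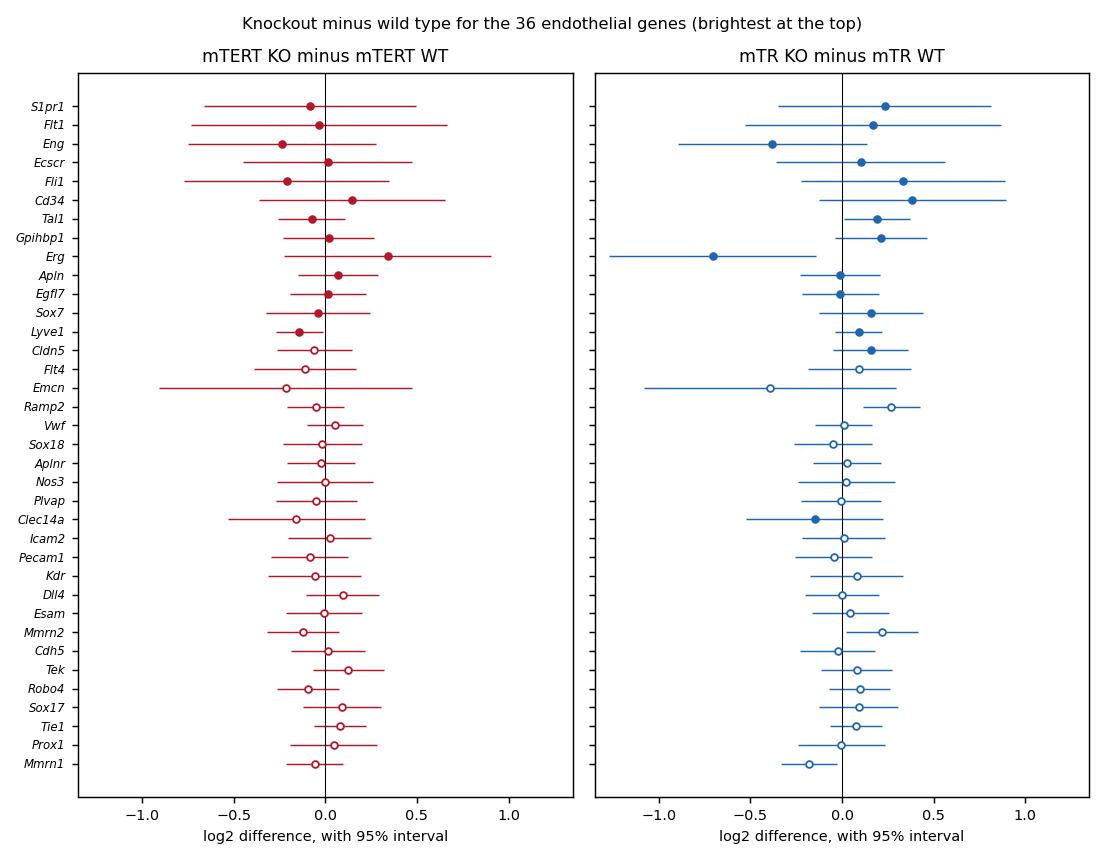
Log2 difference, knockout minus wild type, with its 95% interval (limma, n = 3 per group) for the 36 endothelial genes, in the mTERT line (left) and the mTR line (right). Filled points have 2 or more cultures above background in at least 1 of the groups, and open points do not. Intervals that leave out 0 are those of Lyve1 on the left and of Tal1, Erg, Ramp2, Mmrn2 and Mmrn1 on the right, and none of them passed after adjustment.

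The knockout effects in the lines were also set against each other and averaged. None of the 36 passed in the difference of effects or in their mean, and 0% of all probe sets passed in either. Unadjusted p-values below 0.05 in the difference of effects were found for 5 genes, Erg upward and Mmrn2, Lyve1, Ramp2 and Tal1 downward, where 1.9% of all probe sets were found upward and 1.44% downward. Of the 36 values 15 were above 0, beside 50.9% of all probe sets, and 21 below, beside 49.1%. In the mean effect they were found for Mmrn1 alone, where 2.46% of all probe sets were lower at that level (limma, adjusted p = 0.985), and no gene was higher, where 1.63% were. The mean effect was above 0 for 25 genes, beside 50.4%, and below 0 for 11, beside 49.6%. Between mTERT WT and mTR WT cultures none of the 36 passed either, where 0.0173% of all probe sets did. There, 3 genes were higher in mTERT WT with an unadjusted p below 0.05 (Ramp2, Mmrn2 and Flt4), beside 2.85% of all probe sets, and 2 were lower (Erg and Mmrn1), beside 3.93%. The groups did not overlap for 3 genes that were higher in mTERT WT (Flt4, Ramp2 and Dll4), beside 5.91%, and for 2 that were lower (Eng and Erg), beside 7.14%. Differences were above 0 for 24 genes, beside 52.2%, and below 0 for 12, beside 47.8%. In every contrast, the counts by direction include the 18 genes at background in all cultures, whose signs are those of background values. The mTR comparison and this one share the mTR WT cultures, and the mTERT comparison and this one share the mTERT WT cultures.

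The 11 genes above background in every culture had a median range of 0.93 over the 12 cultures, against 0.43 over all probe sets above background in every culture. In the mTERT line, cultures of the same number lay closer together than cultures of different numbers for 24 of 36 genes, where 62.5% of all probe sets did so, a share near that of the genes. For the 11 genes above background in every culture this held for 9, beside 73.2% of the probe sets above background in every culture. Their median distance was 0.15 between the same-numbered knockout and wild type and 0.24 otherwise. In the mTR line it held for 15 of 36 genes, beside 45%, and for 4 of the 11, beside 46.1%. The median distances of the 11 were 0.34 between same-numbered mTR cultures and 0.25 otherwise.

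Markers of macrophages, another cell type that such cultures can hold, were read in the same arrays. All 16 macrophage markers were measured, 15 of them above background in every culture and Aif1 in 9. Their mean was 7.43 to 9.13 in mTERT KO, 7.73 to 9.37 in mTERT WT, 7.52 to 9.51 in mTR KO and 6.73 to 8.73 in mTR WT cultures. Of the 16, 15 were lower in mTERT KO than in mTERT WT (median −0.14), beside 49.4% of all probe sets. In mTR KO 16 were higher than in mTR WT (median 0.73), beside 50.3%. In mTERT WT 16 were higher than in mTR WT (median 0.80), beside 52.2%, and none passed. Standard errors of the mTR differences ran from 0.43 (Aif1) to 0.97 (Mrc1). Most of these markers rise and fall together from culture to culture, so the counts are not 16 separate results. The 4 lowest cultures were mTR WT 1, mTERT KO 1, mTR KO 3 and mTERT WT 1. The same 4 cultures were the lowest for S1pr1, Fli1 and Sox7, which is 3 of 36 genes, and for 1.63% of all probe sets. All 3 belong to the 11 genes above background in every culture, and 2.18% of the probe sets above background in every culture have that order. S1pr1 read at most 7.37 in these 4 and at least 7.50 in the other 8, Fli1 at most 6.63 and at least 6.84, and Sox7 at most 5.11 and at least 5.14. This order was looked for after the values had been seen, and the part of macrophages in the signals of S1pr1, Fli1 and Sox7 was not tested. In a mixed culture, fewer cells of a type and less RNA per cell cannot be told apart.

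**Figure D4:**
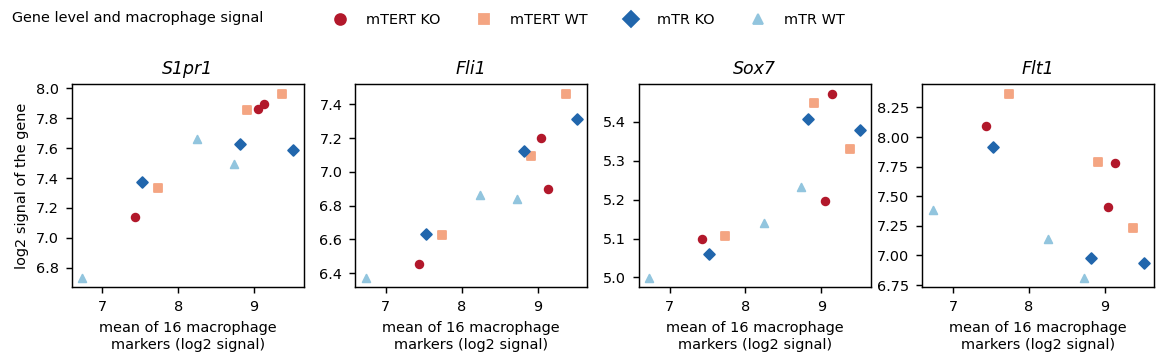
Log2 signal of S1pr1, Fli1, Sox7 and Flt1 (vertical axes) against the mean log2 signal of 16 macrophage markers (horizontal axes) in each of 12 cultures, coloured by group. The 4 cultures with the lowest macrophage signal are also the 4 lowest for S1pr1, Fli1 and Sox7, and not for Flt1.

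The culture mTERT WT 3 was the highest of the 12 for 11 of the 36 genes, where 12.9% of all probe sets peaked. They were Pecam1, Kdr, Flt4, Fli1, Sox18, Mmrn2, Plvap, Cd34, Icam2, Tal1 and S1pr1. Of these 11, Pecam1, Kdr, Sox18, Mmrn2, Plvap and Icam2 were background in that culture too, and the array of mTERT WT 3 had the highest background level, 5.09. Averaged over the 36 genes, its deviation from the mean of all cultures was 0.09, and the other 11 cultures lay between −0.05 and 0.03.

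The genes of the ligands and partners that act on endothelial cells were mostly above background. Of 30 measured angiogenic ligands and pathway partners, 26 were above background in every culture and 0 in none. Vegfa, the main VEGF ligand, read 9.57, 9.45 and 9.55 in mTERT KO and 9.31, 9.72 and 9.43 in mTERT WT cultures, and 9.24, 9.66 and 9.60 in mTR KO and 9.42, 9.66 and 9.29 in mTR WT. Its differences were 0.04 ± 0.14 in each line (limma, adjusted p = 1 and 0.966). None of the 30 passed in either knockout. In the mTERT line 17 differences were above 0, beside 50.6% of all probe sets, and 13 below, with a median of 0.0047. In the mTR line 9 were above and 21 below, beside 49.7%, with a median of −0.09. Between mTERT WT and mTR WT 10 were above 0 and 20 below, beside 47.8%, with a median of −0.16, and none passed. Epas1 (HIF-2alpha) had the smallest p in the mTERT line, at −0.38 ± 0.13 (limma, adjusted p = 1). Sema3a, a guidance cue that restrains vessels, had the smallest in the mTR line, at −0.52 ± 0.23 (limma, adjusted p = 0.839).

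Mural cells wrap vessels from outside. Of 13 pericyte and mural genes 10 were above background in every culture, though fibroblasts share several of them, such as Pdgfrb and Acta2. In mTR KO against mTR WT cultures 12 of 13 were lower, with a median of −0.23, beside 49.7% of all probe sets below 0. In mTERT KO against mTERT WT 10 of 13 were lower, with a median of −0.12, beside 49.4%. In mTERT WT against mTR WT 11 of 13 were lower, with a median of −0.12, beside 47.8%, and none passed in any of these comparisons. Several of these genes, such as Rgs5, Cspg4, Mcam and Tagln, rise and fall together from culture to culture, so the counts are not 13 separate results. By limma, the 2 in the mTR comparison with an unadjusted p below 0.05 were Rgs5 and Cspg4, both lower, where 3.59% of all probe sets were. Rgs5, a pericyte regulator of G-protein signalling, read 5.38, 5.49 and 6.73 in mTR KO and 7.51, 7.25 and 6.96 in mTR WT, a difference of −1.37 ± 0.51 (limma, adjusted p = 0.839). It read 5.00, 5.21 and 6.63 in mTERT KO and 5.44, 5.39 and 6.86 in mTERT WT. Cspg4, the proteoglycan NG2, differed by −0.74 ± 0.27 in the mTR line (limma, adjusted p = 0.839). Between mTERT WT and mTR WT, Rgs5 differed by −1.34 ± 0.51 (limma, adjusted p = 0.659) and Cspg4 by −0.78 ± 0.27 (limma, adjusted p = 0.584). For both genes the 3 mTR WT cultures were the highest of the 12. Erythroid genes were at background, with 9 of 9 above it in 0 cultures, and all 12 fibroblast genes were above it in every culture.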

How the data were processed

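RNA of 12 fibroblast cultures had been hybridised to Affymetrix arrays, 1 array per culture. The authors deposited log2 signals per probe set. How they put the arrays on one scale is not stated in the labels. The submitters' processing notes name PLIER, GCOS 1.4 and Affymetrix Expression Console, with no role for any of them. Column quantiles differed by at most 0.08 between arrays, and correlations between arrays ran from 0.984 to 0.997, so the values were used as deposited. The precision is limited by the number of arrays, 3 per group.

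Genes were named from the platform's annotation, and list symbols were matched through RefSeq synonyms where needed. The members and the 6 companion lists (angiogenic partners, pericyte, macrophage, platelet, erythroid and fibroblast genes) were chosen with earlier results of these data known. Platelet genes were measured for 5 of 8, with Pf4 the only one above background in every culture; 2 of the 5 were above 0 in the mTERT line and 4 of 5 in the mTR line, and none passed. Of the fibroblast genes 6 of 12 and of the erythroid genes 3 of 9 were above 0 in the mTERT line and 8 of 12 and 5 of 9 in the mTR line, and none passed. Over all probe sets 50.6% were above 0 in the mTERT line and 50.3% in the mTR line.

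A model of 4 group means was fitted to the 12 arrays at all 28853 probe sets (limma 3.58.1, R 4.3.3), with Benjamini-Hochberg adjustment over all probe sets and a threshold of 5%. It had 8 residual and 3.14 prior degrees of freedom, and its 5 contrasts were the mTERT and mTR knockout effects, their difference and mean, and mTERT WT minus mTR WT. The procedure was also run on simulated data with independent noise for each probe set and array. Those data held no pairing of cultures, unlike the mTERT line, and the outcome is not given here. Values in every culture are given for 8 defining markers, the 5 genes with the highest signal, the 5 with the largest range, and each gene with an unadjusted p below 0.05 in a knockout comparison or between the wild types. No difference is printed where every group had fewer than 2 cultures above background. Alternatives were replicate blocks, quantile normalization, median centring, a filter on dim probe sets, array quality weights, a variance prior both trended and robust, a fit restricted to the groups compared, and leaving out each array.

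Whether equal replicate numbers pair the cultures was checked on the 14426 probe sets of higher mean signal. Deviations of same-numbered knockout and wild-type cultures from their group means correlated at 0.674, 0.733 and 0.790 in the mTERT line, and at −0.156, 0.289 and −0.377 in the mTR line. On these values the numbers pair the mTERT cultures and not the mTR cultures. The design text calls wild-type and knockout embryos of a set littermates, but no label says that the number marks the set. The main model therefore has no block, and the pairs enter only in alternative fits. Its mTERT standard errors, intervals and p-values do not use the pairing. Plots came from Python 3.11.15 and matplotlib 3.10.9.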

Additional observations from a re-analysis of the deposited data

Results flagged for a closer look

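Lyve1 lay on opposite sides of its wild types in the lines: all 3 mTERT KO cultures lay below all 3 mTERT WT cultures, and all 3 mTR KO cultures above all 3 mTR WT cultures. The measured difference between the effects, mTERT minus mTR, was −0.23 and did not pass (limma, adjusted p = 1.00). The mTERT KO level was not above background in any of its 3 cultures and is a bound, so this value gives no size of a difference. The gene lay within 0.38 of itself in all 12 cultures, around the background level.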

How the results depend on the processing

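No alternative brought any of the 36 genes past the 5% false discovery rate in the 5 contrasts, in 88 fits of a contrast. With the mTERT pairs as a replicate block the median over the genes was −0.03 in the mTERT line and 0 genes passed, as without it; blocks by number within each line, across both lines and as a random effect changed no call either, though the block within each line left 0 genes with an unadjusted p below 0.05 in the mTERT line. Fixed blocks within the lines were not run for the comparison of the wild types, and a mean over probe sets was not run because each gene has 1. With only probe sets above background in at least 3 arrays, 16 genes were left, and the median was 0.13 in the mTR line, −0.20 for the difference of effects, 0.053 for the mean effect and 0.13 between the wild types; fewer genes were tested there. With 1 array left out it ran from −0.068 to −0.011 for the difference of effects and from 0.020 to 0.090 between the wild types, against −0.04 and 0.05 with all 12 arrays. It ran from −0.044 to −0.0016 in the mTERT line, the highest without mTERT WT 3, from 0.033 to 0.063 in the mTR line, the lowest without mTR KO 3, and from −9.4e-05 to 0.028 for the mean effect, the lowest without mTERT KO 1. With 1 array left out, the number of genes with an unadjusted p below 0.05 ran from 0 to 2 in the mTERT line, from 2 to 5 in the mTR line and from 2 to 8 between the wild types; with array weights it was 9 in the mTR line. The number of all probe sets passing between the wild types was 5, and ran from 0 to 11.

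With the 99th percentile of olfactory receptors as background, 6 genes rather than 11 passed in every culture and 23 rather than 18 in none; with the 90th percentile they were 12 and 13. Vomeronasal receptors, an alternative chosen after seeing the data, gave 10 and 19. Of 417 recomputed differences of single genes 403 kept their direction. Ecscr in the mTERT line turned to −0.0024 after quantile normalization and to −0.0093 with array weights. With 1 array left out, differences in the mTERT line ran from −0.072 to 0.17 for Ecscr, from −0.28 to 0.16 for S1pr1, from −0.32 to 0.25 for Flt1 and from −0.031 to 0.40 for Cd34, and in the mTR line from −0.15 to 0.34 for Flt1, from −0.039 to 0.34 for Ecscr and from −0.050 to 0.42 for S1pr1. The leave-one-out fits had no replicate block, so the same-numbered partner of a left-out mTERT culture stayed in. The cause of these changes was not tested. Whether the probe sets of genes at background would respond to endothelial RNA was not tested.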
